A study of Mus musculus with 6 samples.

Results

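Ion channel genes were examined in RNA sequencing of mouse hippocampus after postnatal immune activation, with and without interleukin 27. The genes comprise voltage-gated potassium, sodium and calcium channels with their auxiliary subunits, chloride channels of the ClC and anoctamin families, and transient receptor potential (TRP) channels. They were chosen by the prefix of the gene symbol (among them Kcn, Scn, Cacn, Clcn, Ano, Trpa, Trpc, Trpm and Trpv, with Kcne2 left out), and 47 of the 3733 genes of the deposited table belong to them; the table holds no Trpv gene. There are 3 groups of 2 libraries of total RNA from mouse hippocampus. Control received no treatment that the labels name. PIA stands for the postnatal immune activation that the title names, given as lipopolysaccharide (LPS), a bacterial stimulus of innate immunity, and the third group, PIA+IL-27, received LPS and recombinant IL-27, a cytokine made by myeloid cells. The labels give no strain, age, sex, dose, time or animal for any group, nor whether tissue was pooled. The p-values therefore measure the spread between these samples, which may in part be technical. The authors' deposited table holds only genes that differ, by an absolute log2 fold change of 1 or more and a Q value up to 0.05, in 1 or more of their 3 comparisons, so the 47 genes were selected on these same libraries. Channel genes outside the table are not analysed here.

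Voltage-gated channels open when the membrane potential changes. Sodium channels carry the upstroke of the action potential, potassium channels repolarize the membrane and set how often a neuron fires, and calcium channels couple firing to transmitter release and gene expression. In hippocampal pyramidal cells, A-type potassium channels of the Kv4 family in the dendrites limit how far synaptic input spreads, and the M-current of Kv7 channels dampens repeated firing. TRP channels are cation channels opened by receptors, lipids, temperature or irritants. Most of these genes are expressed in neurons, while Kcnj16 is known from glia and Kcnj13 from the choroid plexus.

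The levels of most channel genes divided the 6 libraries across the groups. In 27 of the 47 genes (57.4%), the 3 libraries Control 2, PIA+IL-27 1 and PIA+IL-27 2 were all above Control 1, PIA 1 and PIA 2. The same division was found in 1956 of the 3733 listed genes (52.4%). The 27 genes include 4 of the 6 sodium channel genes, 9 of the 14 voltage-gated potassium channel genes, both anoctamins and 3 of the 5 TRP genes. A second set of 9 channel genes (19.1%, against 6.86% of all listed genes) was higher in PIA 2 and PIA+IL-27 1 than in each of the other 4 libraries: Kcng3, Kcnh4, Kcnh5, Kcnt1, Cacna1i, Cacng6, Clcn1, Clcn2 and Trpa1. Of these counts no test was made, since the genes are not replicates. In the edgeR quasi-likelihood test with Benjamini-Hochberg adjustment over all 3216 genes tested, 1 channel gene passed in any comparison, Trpa1 in PIA+IL-27 against Control. All 47 passed the filter on low counts, and no channel gene had 0 reads in any library.

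**Figure D1:**
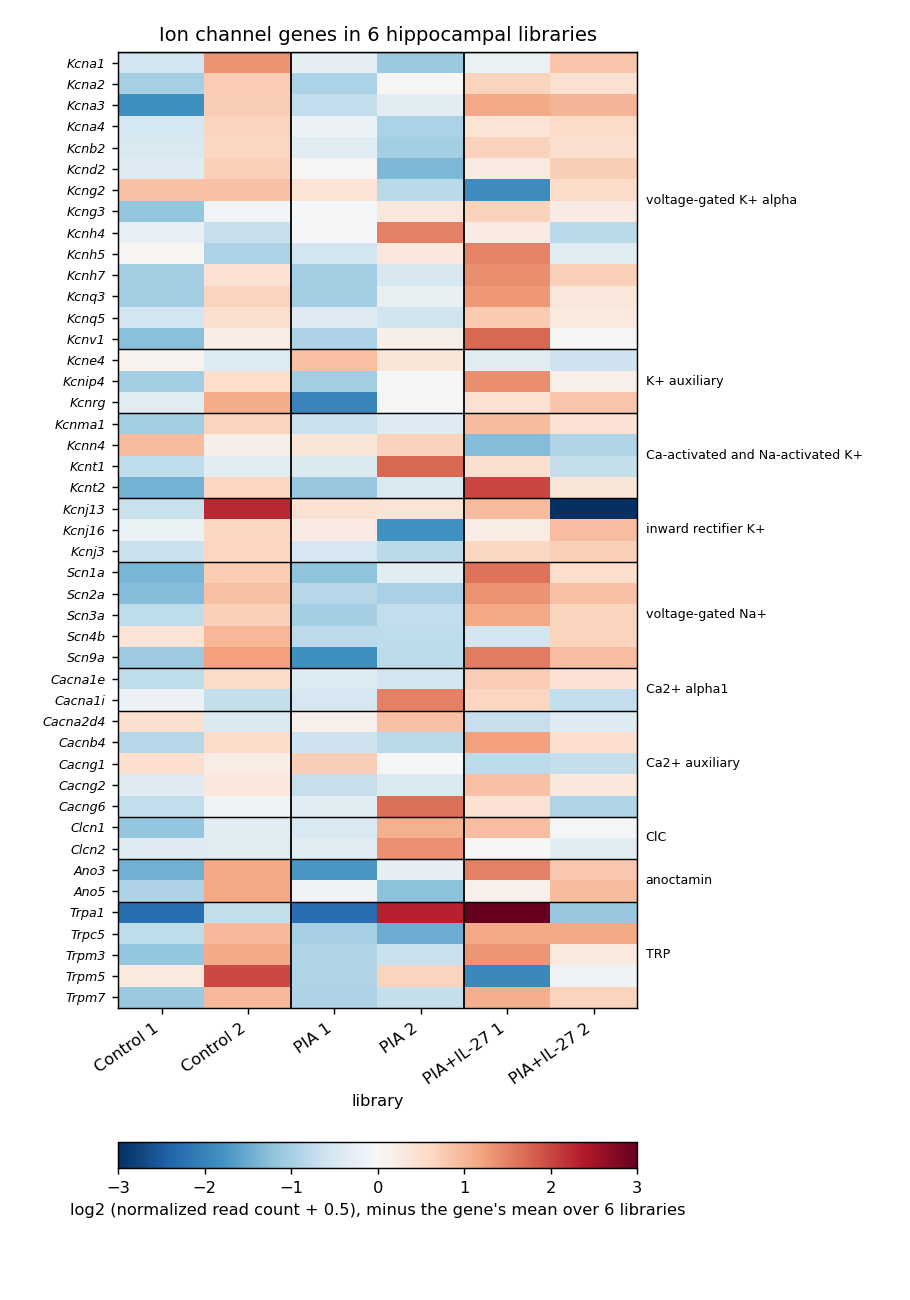
Each row is 1 of 45 channel genes, ordered by family, and each column 1 library; the color is the log2 normalized read count (0.5 added) minus the gene's mean over the 6 libraries, with colors saturated at -3 and 3. Control 2 and the PIA+IL-27 libraries are above the mean in most rows, as in Scn1a, Scn2a and Trpc5, while Kcnt1, Cacna1i and Clcn2 peak in PIA 2.

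The libraries differed in ways that the groups do not account for. Reads in the listed genes numbered from 641672 to 1593441 per library, and reads in channel genes from 9232 in Control 1 to 25675 in PIA+IL-27 1. Summed over 47 genes, channel transcripts came to 134 and 346 TPM (read counts per transcript length, scaled to the same total in every library) in the Control libraries, 152 and 229 in those of PIA, and 387 and 293 in those of PIA+IL-27. Markers of neocortex, of which 6 of 13 are listed, summed to 2698 and 1485 in the Control libraries, 2355 and 5571 in those of PIA, and 8735 and 1930.2 in those of PIA+IL-27 (normalized read counts), highest in PIA 2 and PIA+IL-27 1. Markers of dentate granule cells (5 of 9 listed) summed to 1205 and 2879 in the Control libraries, 1431 and 361 in those of PIA, and 686 and 2846 in those of PIA+IL-27, and the 2 listed markers of hippocampal pyramidal cells, Fibcd1 and Spink8, to 1245 and 1736 in the Control libraries, 1631 and 507 in those of PIA, and 215 and 1113 in those of PIA+IL-27; both sums were lowest in PIA 2 and PIA+IL-27 1. The general neuronal markers Snap25 and Map2 summed to 6894 and 16826 in the Control libraries, 9035 and 4988 in those of PIA, and 17436 and 18791 in those of PIA+IL-27, in which Control 2 and the PIA+IL-27 pair were above the other 3. Choroid plexus markers (13 of 13) summed to 658 and 65769 in the Control libraries, 12816 and 832 in those of PIA, and 1350.3 and 1513 in those of PIA+IL-27; Tmem72 was at 0 in both PIA+IL-27 libraries and Otx2 in PIA+IL-27 1. The Y-linked genes Kdm5d, Ddx3y, Eif2s3y and Uty summed to 2.94 and 9.52 in the Control libraries, 541 and 594 in those of PIA, and 1476 and 6.80 in those of PIA+IL-27, so that an effect of PIA against Control and this difference cannot be told apart. The part that tissue composition has in the channel values was not tested, and in bulk tissue fewer cells of a type and less RNA per cell cannot be told apart.

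Most voltage-gated sodium channel genes followed the common division. Scn2a (Nav1.2), the main sodium channel of the axon initial segment of young excitatory neurons, was the most abundant of the 6, with a mean of 17.9 TPM. The authors' normalized read counts, called normalized reads from here on, give its level per library. Scn2a had 422 and 1885 normalized reads in the Control libraries, 572 and 530.2 in those of PIA, and 2633 and 1908 in those of PIA+IL-27. Scn1a (Nav1.1), the sodium channel on which fast-spiking interneurons depend, had 74.4 and 329 normalized reads in the Control libraries, 84.6 and 155 in those of PIA, and 604 and 279 in those of PIA+IL-27, and Scn3a (Nav1.3), known from the developing brain, had 280.1 and 784 normalized reads in the Control libraries, 233 and 283 in those of PIA, and 1054 and 753 in those of PIA+IL-27. In all 3 genes Control 2 lay with PIA+IL-27 and Control 1 with PIA, and every PIA+IL-27 library was above every PIA library. Scn9a (Nav1.7), best known from pain-sensing neurons, was rare, at a mean of 0.855 TPM, and had 24.5 and 124 normalized reads in the Control libraries, 14.4 and 30.5 in those of PIA, and 157 and 101 in those of PIA+IL-27. Scn3a, Scn2a, Scn1a and Scn9a are neighbors on mouse chromosome 2 in the RefSeq annotation, and the read counts of each of them are not whole in at least 1 library, as happens when reads are divided among transcripts or similar genes. Interneuron markers (3 of 11 listed, among them Gad2) divided the libraries in the same way, with sums of 419 and 1802 in the Control libraries, 493 and 364 in those of PIA, and 1499 and 1368 in those of PIA+IL-27; their part in the Scn1a values was not tested.

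Scn4b did not follow that division. It encodes the beta subunit that takes part in resurgent sodium current, and had 22.5 and 34.3 normalized reads in the Control libraries, 9.61 and 9.82 in those of PIA, and 11.5 and 27.2 in those of PIA+IL-27. Both PIA libraries were below both Control libraries and below both PIA+IL-27 libraries. The margin to PIA+IL-27 1 rests on few reads, with 10 and 9 reads in the PIA libraries and 11 in PIA+IL-27 1. Summed over the 6 genes, sodium channel transcripts came to 10.2 and 45.96 in the Control libraries, 11.6 and 12.1 in those of PIA, and 58.8 and 41.9 in those of PIA+IL-27, all in TPM. Control 1 and the PIA libraries were within 10.2 to 12.1 TPM, and the other 3 libraries within 41.9 to 58.8 TPM.

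**Figure D2:**
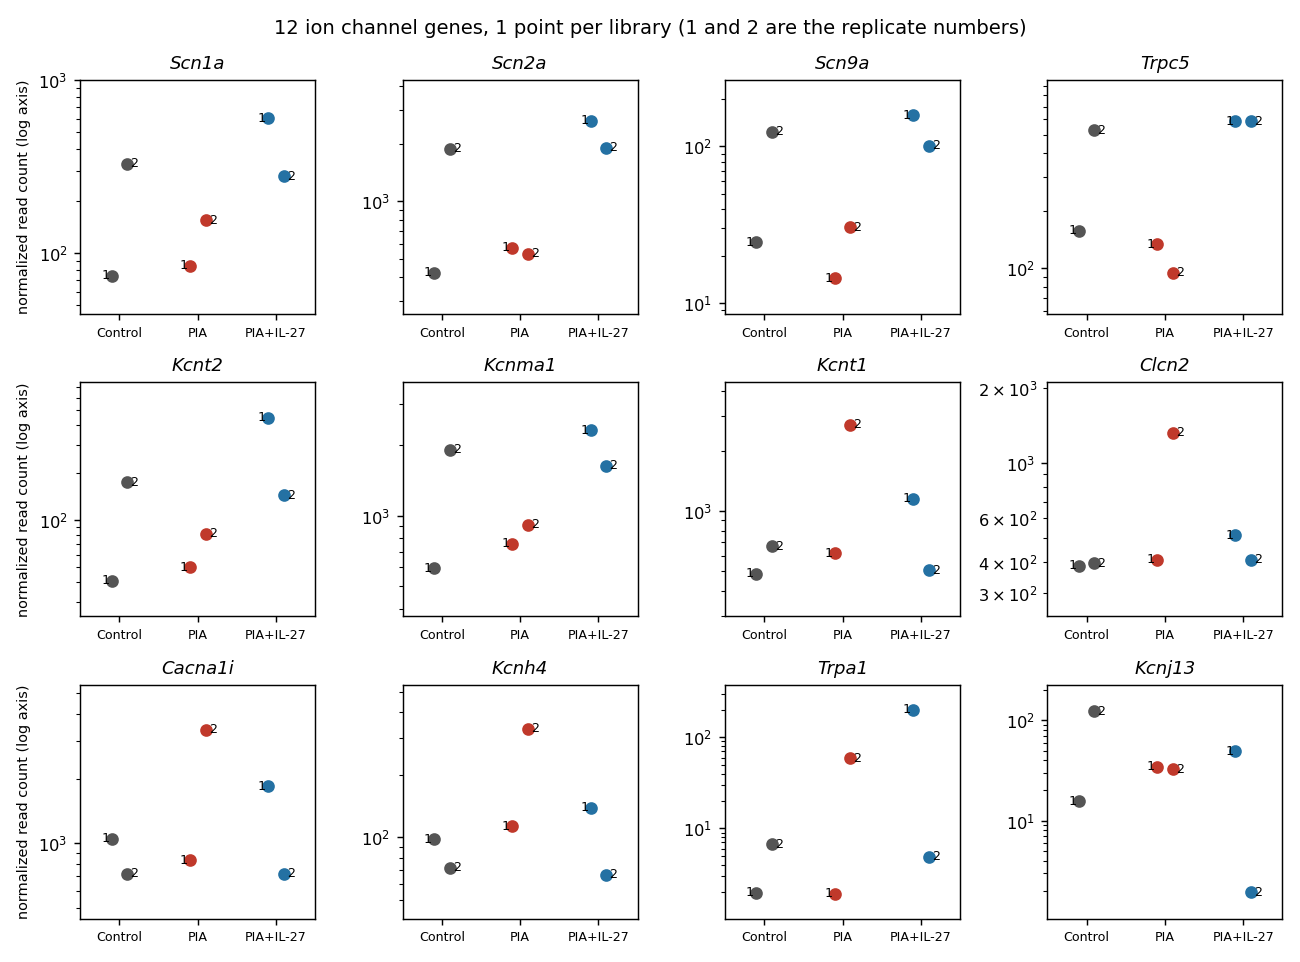
Normalized read counts of 12 channel genes, 1 point per library with its replicate number; each panel has its own logarithmic axis. Scn1a, Scn2a, Scn9a, Trpc5, Kcnt2 and Kcnma1 put Control 2 beside the PIA+IL-27 pair, Kcnt1, Clcn2, Cacna1i and Kcnh4 are highest in PIA 2, Trpa1 is highest in PIA+IL-27 1, and Kcnj13 in Control 2.

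Among voltage-gated potassium channels, Kcnd2 (Kv4.2), the A-type channel of pyramidal cell dendrites, was the most abundant channel gene of the table, at a mean of 23.6 TPM. It had 777 and 1647 normalized reads in the Control libraries, 1034 and 397 in those of PIA, and 1209.5 and 1684 in those of PIA+IL-27, lowest in PIA 2. Kcna4 (Kv1.4), an A-type channel of axons, had 102 and 234 normalized reads in the Control libraries, 132 and 76.4 in those of PIA, and 198 and 220.4 in those of PIA+IL-27, and was also lowest in PIA 2. Kcna1 (Kv1.1) and Kcna2 (Kv1.2), which assemble in axons and near the nodes of Ranvier, differed in the library with the lowest level. Kcna1 had 152 and 581 normalized reads in the Control libraries, 188 and 105 in those of PIA, and 197 and 405 in those of PIA+IL-27, and Kcna2 had 215 and 727 normalized reads in the Control libraries, 220.0 and 439 in those of PIA, and 682 and 589 in those of PIA+IL-27. In Kcna1 the values of PIA 1 and PIA+IL-27 1 were close, at 188 and 197, whereas the PIA+IL-27 libraries of Kcna2 were above 589 and the PIA libraries below 439. Kcna3 (Kv1.3), a channel also known from T cells and microglia, was near the limit of counting, with 2 and 15 reads in the Control libraries, 5 and 6 in those of PIA, and 18 and 18 in those of PIA+IL-27.

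The subunits of the M-current, Kcnq3 (Kv7.3) and Kcnq5 (Kv7.5), followed the common division. Kcnq3 had 384 and 1233 normalized reads in the Control libraries, 381 and 664 in those of PIA, and 1919 and 981 in those of PIA+IL-27, and Kcnq5, the more abundant by TPM (11.1 against 8.60 on average), had 441 and 907 normalized reads in the Control libraries, 503 and 433 in those of PIA, and 1119 and 802 in those of PIA+IL-27. The values of Control 2 were within the range of the PIA+IL-27 libraries in both genes. Kcnb2 (Kv2.2), a delayed rectifier, had 115 and 243 normalized reads in the Control libraries, 125 and 77.5 in those of PIA, and 255 and 218 in those of PIA+IL-27, and Kcnh7 (Kv11.3), of the ERG family, had 45.1 and 126 normalized reads in the Control libraries, 46.1 and 66.6 in those of PIA, and 248 and 153 in those of PIA+IL-27.

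Kcnh4 and Kcnh5, relatives of Kcnh7 of the ELK and EAG types, did not follow it. Kcnh4 (Kv12.3) had 97.9 and 71.4 normalized reads in the Control libraries, 113 and 334 in those of PIA, and 139 and 66.02 in those of PIA+IL-27, with PIA 2 the highest library and PIA+IL-27 2 the lowest. Kcnh5 (Kv10.2) had 23.5 and 11.4 normalized reads in the Control libraries, 15.4 and 28.4 in those of PIA, and 64.6 and 17.5 in those of PIA+IL-27, with PIA+IL-27 1 the highest. The silent subunits, which form channels only together with other Kv subunits, differed among themselves. Kcnv1 (Kv8.1) had 76.4 and 213 normalized reads in the Control libraries, 95.1 and 205 in those of PIA, and 603 and 185 in those of PIA+IL-27, and Kcng3 (Kv6.3) had 31.3 and 66.7 normalized reads in the Control libraries, 69.2 and 90.6 in those of PIA, and 116 and 84.5 in those of PIA+IL-27. Control 1 was the lowest library of both and PIA+IL-27 1 the highest. Kcng2 (Kv6.2) had 179 and 182 normalized reads in the Control libraries, 129.7 and 55.6 in those of PIA, and 26.1 and 143 in those of PIA+IL-27, and was the 1 channel gene below the other 4 libraries in both PIA 2 and PIA+IL-27 1. Fibcd1, the pyramidal cell marker, also had its 2 lowest values in these libraries, at 506 and 214 against 1102 to 1717 in the other 4.

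Auxiliary genes of potassium channels were few. Kcnip4, a calcium-binding subunit of Kv4 channels, had 84.2 and 251 normalized reads in the Control libraries, 83.6 and 175 in those of PIA, and 459.8 and 194 in those of PIA+IL-27, and belongs to the 27 genes of the common division together with its partner Kcnd2. Kcne4, a single-span subunit that inhibits several Kv channels, had 24.5 and 17.1 normalized reads in the Control libraries, 43.2 and 29.5 in those of PIA, and 17.7 and 14.6 in those of PIA+IL-27. Its 2 highest values were those of PIA. Kcnrg, a soluble regulator of Kv assembly rather than a channel, ranged from 1.92 normalized read counts in PIA 1 to 20.0 in Control 2.

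Potassium channels gated by calcium or sodium divided by member. Kcnma1, the BK channel that shortens action potentials, had 596 and 1914 normalized reads in the Control libraries, 757 and 914 in those of PIA, and 2315 and 1629 in those of PIA+IL-27. The sodium-activated channels Kcnt1 (Slack) and Kcnt2 (Slick), which can form joint channels, had different orders of libraries. Kcnt1, with a mean of 18 TPM, had 486 and 667 normalized reads in the Control libraries, 616 and 2722 in those of PIA, and 1155 and 505 in those of PIA+IL-27, and Kcnt2, with a mean of 2.30 TPM, had 41.1 and 174 normalized reads in the Control libraries, 49.97 and 81.8 in those of PIA, and 445 and 144 in those of PIA+IL-27. PIA 2 was the highest library of Kcnt1 and the fourth in order for Kcnt2, whose highest library was PIA+IL-27 1. Kcnn4, the intermediate-conductance channel known from blood and immune cells, had 12 and 7 reads in the Control libraries, 8 and 9 in those of PIA, and 2 and 3 in those of PIA+IL-27, so that the PIA+IL-27 values rest on 2 and 3 reads.

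Inward rectifiers set the resting potential. Kcnj3 (GIRK1), the subunit of channels opened by G-protein-coupled receptors, had 303 and 753 normalized reads in the Control libraries, 342 and 274 in those of PIA, and 748 and 789 in those of PIA+IL-27; 31.1% of its exonic bases are shared with a non-coding gene on the opposite strand, and the strand of counting is not given in the sources used here. Kcnj16 (Kir5.1), a glial subunit, had 116 and 205 normalized reads in the Control libraries, 158 and 37.1 in those of PIA, and 155 and 253 in those of PIA+IL-27, lowest in PIA 2. Astrocyte markers, of which Aqp4, Slc1a2 and Gfap are listed, summed to 18072 and 18347 in the Control libraries, 23991 and 9211 in those of PIA, and 13868 and 15753 in those of PIA+IL-27. The sum joins genes of unlike order: Aqp4 and Slc1a2 were lowest in PIA 2, at 457 and 2719, whereas Gfap was lowest in PIA+IL-27 1, at 4066, and had 6035 in PIA 2. Kcnj13 (Kir7.1), a channel of the choroid plexus, had 15.7 and 123 normalized reads in the Control libraries, 34.6 and 32.7 in those of PIA, and 49.01 and 1.94 in those of PIA+IL-27, and its highest value was in Control 2, the library with the highest sum of choroid plexus markers. The other libraries did not follow that sum: PIA 1, with a marker sum of 12816, had 34.6, and PIA 2, with 832, had 32.7. Of the exonic bases of Kcnj13, 49.1% are shared with Gigyf2 on the opposite strand.

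The 2 listed pore-forming subunits of calcium channels were about equally abundant, with mean levels of 15.95 TPM for Cacna1e and 15.3 TPM for Cacna1i, but their orders of libraries differed. Cacna1e (Cav2.3), the R-type channel of dendrites and spines, had 1204 and 2999 normalized reads in the Control libraries, 1548 and 1368 in those of PIA, and 3450.3 and 2771 in those of PIA+IL-27. Both PIA+IL-27 libraries and Control 2 were above the other 3. Cacna1i (Cav3.3), a T-type channel that supports burst firing and is best known from the thalamic reticular nucleus, had 1051 and 722 normalized reads in the Control libraries, 835 and 3389.8 in those of PIA, and 1849 and 719 in those of PIA+IL-27. PIA 2 was the highest and PIA+IL-27 1 the second, and the other 4 libraries lay between 719 and 1051. Rora, the 1 of 7 thalamic markers that is listed, had 47.02 and 133 in the Control libraries, 66.3 and 89.5 in those of PIA, and 271 and 127 in those of PIA+IL-27, and its highest library was PIA+IL-27 1.

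Auxiliary calcium channel subunits were divided. Cacnb4, the beta subunit that brings pore-forming subunits to the membrane, had 145 and 387 normalized reads in the Control libraries, 172 and 151 in those of PIA, and 619 and 378 in those of PIA+IL-27, and Cacng2 (stargazin), which also carries AMPA receptors to the synapse, had 280.1 and 450.4 normalized reads in the Control libraries, 225 and 267 in those of PIA, and 670.5 and 455 in those of PIA+IL-27. Both followed the common division. Cacng6, a gamma subunit, had 9.79 and 15.2 normalized reads in the Control libraries, 13.5 and 53.5 in those of PIA, and 22.9 and 8.74 in those of PIA+IL-27, highest in PIA 2. The muscle subunit Cacng1 and the photoreceptor subunit Cacna2d4 were at or below a mean of 1.66 TPM, with highest values of 22.1 and 19.6 normalized read counts, and both were lower in each PIA+IL-27 library than in each PIA library.

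Chloride channels of the ClC family and anoctamins differed in their order of libraries. Clcn2 (ClC-2), an inwardly rectifying chloride channel of neurons and glia, had 387 and 395 normalized reads in the Control libraries, 408 and 1321 in those of PIA, and 512 and 409 in those of PIA+IL-27, so that 5 of the 6 libraries lay between 387 and 512 and PIA 2 stood at 1321. Clcn1, the chloride channel of skeletal muscle, had 23.5 and 42.8 normalized reads in the Control libraries, 38.4 and 112 in those of PIA, and 102 and 51.5 in those of PIA+IL-27. Ano3 and Ano5, members of the anoctamin family of scramblases and channels, were both below a mean of 1 TPM. Ano3 had 10.8 and 66.7 normalized reads in the Control libraries, 8.65 and 25.1 in those of PIA, and 86.5 and 53.4 in those of PIA+IL-27. Ano5 had 17.6 and 76.2 normalized reads in the Control libraries, 31.7 and 14.2 in those of PIA, and 37.5 and 66.02 in those of PIA+IL-27.

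**Figure D3:**
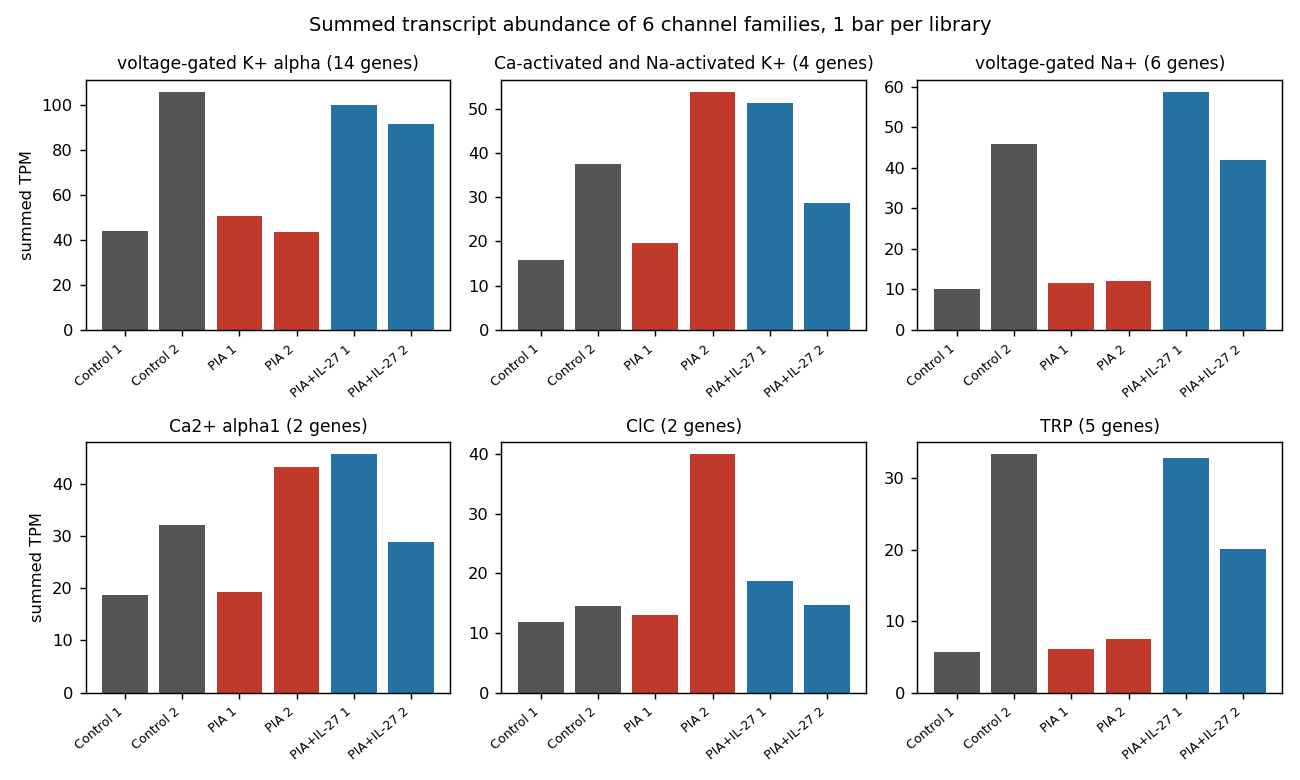
Bars give the summed TPM of the listed genes of 6 channel families in each library, from 0. Sodium and TRP channels are high in Control 2 and in the PIA+IL-27 pair, and the ClC sum is 39.9 TPM in PIA 2 against 11.8 to 18.6 TPM in the other libraries.

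TRP channel genes comprised 3 members of the common division and the gene with the widest range of all 47. Trpc5, a receptor-operated cation channel of hippocampal and amygdalar neurons, had 157 and 527 normalized reads in the Control libraries, 134 and 94.9 in those of PIA, and 586 and 588 in those of PIA+IL-27. The 3 high libraries were within 527 and 588 and the 3 low ones within 94.9 and 157. Trpm3, a heat- and steroid-activated channel that is also abundant in choroid plexus, had 225 and 1115 normalized reads in the Control libraries, 273 and 317 in those of PIA, and 1277 and 618 in those of PIA+IL-27, and Trpm7, a channel joined to a kinase that passes magnesium, had 97.9 and 424 normalized reads in the Control libraries, 112 and 131 in those of PIA, and 453 and 342 in those of PIA+IL-27. Trpm5, the channel of taste cells, ranged from 2.09 in PIA+IL-27 1 to 39.0 in Control 2.

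Trpa1, the irritant receptor of sensory neurons that has also been described in astrocytes, ranged 104-fold over the libraries. It had 2 and 7 reads in the Control libraries, 2 and 54 in those of PIA, and 192 and 5 in those of PIA+IL-27, which correspond to 1.96 and 6.67 normalized reads in the Control libraries, 1.92 and 58.9 in those of PIA, and 200.2 and 4.85 in those of PIA+IL-27. The values of PIA+IL-27 1 and PIA 2 stood above the other 4, whereas PIA 1 was at 1.92 and PIA+IL-27 2 at 4.85. Trpa1 and Kcnj13 (63.3-fold) had the widest ranges of the 47 genes, and both were at or below 5 normalized read counts in at least 1 library. PIA 2 and PIA+IL-27 1 are also the libraries in which neocortical markers were high and dentate markers low; the part of that difference in the Trpa1 values was not tested.

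Promoters of 6 genes are shown so that genes of the common division (Scn1a, Scn9a and Trpc5) can be set beside genes that peak in PIA 2 (Clcn2, Kcnh4 and Cacna1i). Each line gives 250 bases before the annotated start, 5′ to 3′ on the gene's strand, from RefSeq with the build GRCm38.p6. Capitals mark matches to GGGCGG (Sp1 box) or CCAAT on either strand.
Scn1a, chr2:66440838-66441087, minus strand: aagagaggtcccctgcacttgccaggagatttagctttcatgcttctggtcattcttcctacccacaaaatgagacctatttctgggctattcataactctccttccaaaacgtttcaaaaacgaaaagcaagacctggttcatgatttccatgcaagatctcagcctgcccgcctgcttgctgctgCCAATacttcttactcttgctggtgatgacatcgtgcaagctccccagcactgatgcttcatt
Scn9a, chr2:66634963-66635212, minus strand: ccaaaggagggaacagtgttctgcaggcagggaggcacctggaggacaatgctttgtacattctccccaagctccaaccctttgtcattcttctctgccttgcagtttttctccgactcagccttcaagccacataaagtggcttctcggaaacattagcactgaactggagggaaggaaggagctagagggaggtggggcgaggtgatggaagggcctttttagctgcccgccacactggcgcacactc
Trpc5, chrX:144688181-144688430, minus strand: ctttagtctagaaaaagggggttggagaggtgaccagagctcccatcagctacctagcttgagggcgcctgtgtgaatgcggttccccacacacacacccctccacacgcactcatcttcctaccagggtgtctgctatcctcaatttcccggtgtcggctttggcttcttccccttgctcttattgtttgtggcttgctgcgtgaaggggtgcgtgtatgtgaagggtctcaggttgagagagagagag
Clcn2, chr16:20716637-20716886, minus strand: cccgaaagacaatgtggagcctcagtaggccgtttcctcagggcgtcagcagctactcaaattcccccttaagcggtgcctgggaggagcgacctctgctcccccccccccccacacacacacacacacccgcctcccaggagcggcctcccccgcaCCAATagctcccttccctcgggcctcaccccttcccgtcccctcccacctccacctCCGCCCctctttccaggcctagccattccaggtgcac
Kcnh4, chr11:100759779-100760028, minus strand: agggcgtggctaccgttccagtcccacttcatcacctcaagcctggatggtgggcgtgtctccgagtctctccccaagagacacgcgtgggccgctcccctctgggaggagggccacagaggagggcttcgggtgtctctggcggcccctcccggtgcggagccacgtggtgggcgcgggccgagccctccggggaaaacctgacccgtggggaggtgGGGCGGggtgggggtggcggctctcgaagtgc
Cacna1i, chr15:80286988-80287237, plus strand: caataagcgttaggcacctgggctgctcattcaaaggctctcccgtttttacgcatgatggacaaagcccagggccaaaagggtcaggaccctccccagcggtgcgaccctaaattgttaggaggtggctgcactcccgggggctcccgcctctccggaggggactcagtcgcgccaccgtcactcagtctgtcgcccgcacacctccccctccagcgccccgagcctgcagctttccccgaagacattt
The first 3 had a GC content of 46.8, 54.4 and 54.4%, and the last 3 had 66.0, 70.8 and 62.4%. The CpG counts were 4, 5 and 7 against 11, 20 and 16. These 6 do not stand for the rest: over all matched promoters, in windows that also include 50 bases after the start, 29 promoters of the common division had a median GC content of 59.7% (33.0 to 78.3%), and the 16 of the other channel genes had 56.0% (44.0 to 82.0%). In the same windows Kcnma1 and Kcna3, of the common division, had 78.0 and 75.0%, and Cacng6, which peaks in PIA 2, had 52.7%. Promoters of 35 of the 47 genes were matched by gene identifier and used, 45 in all. The median GC content of these 45 was 59.0%, against 52.7% in the 32851 promoters of the RefSeq table. On both strands, GGGCGG was found in 14 of the 45 (31.1%, against 35.7% of all promoters), CCAAT in 14 (31.1% against 37.4%) and the TATA box TATAAA in 5 (11.1% against 13.6%). The cyclic AMP response element TGACGTCA was found in 0 of 45, against 1.79% of all. None of the 4 motifs is contained in another. A match or its absence is a description of the letters in these windows.

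Transcripts were compared between the common division and all other channel genes. Over the longest coding transcripts, the 27 genes of the common division had a median GC content of 43.9% and a median length of 7785 bases, and the other 20 had 53.8% and 3824.5 bases. Among the 47 genes, the log2 ratio of PIA+IL-27 to PIA went down with GC content at a Spearman rho of -0.72, and over the 3575 listed genes with a value the rho was -0.64. The ratio of Control 2 to Control 1, between libraries of 1 group, had a rho of -0.51 in the channel genes and -0.51 in all. These correlations are across genes within the same libraries and share the libraries' depth and base composition. After removal of loess trends on length and GC content from each library, the median log2 fold change of the channel genes in PIA+IL-27 against PIA was 0.77, against 1.09 without that step. The median of all genes tested moved alike, to 0.76 from 1.17.

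**Figure D4:**
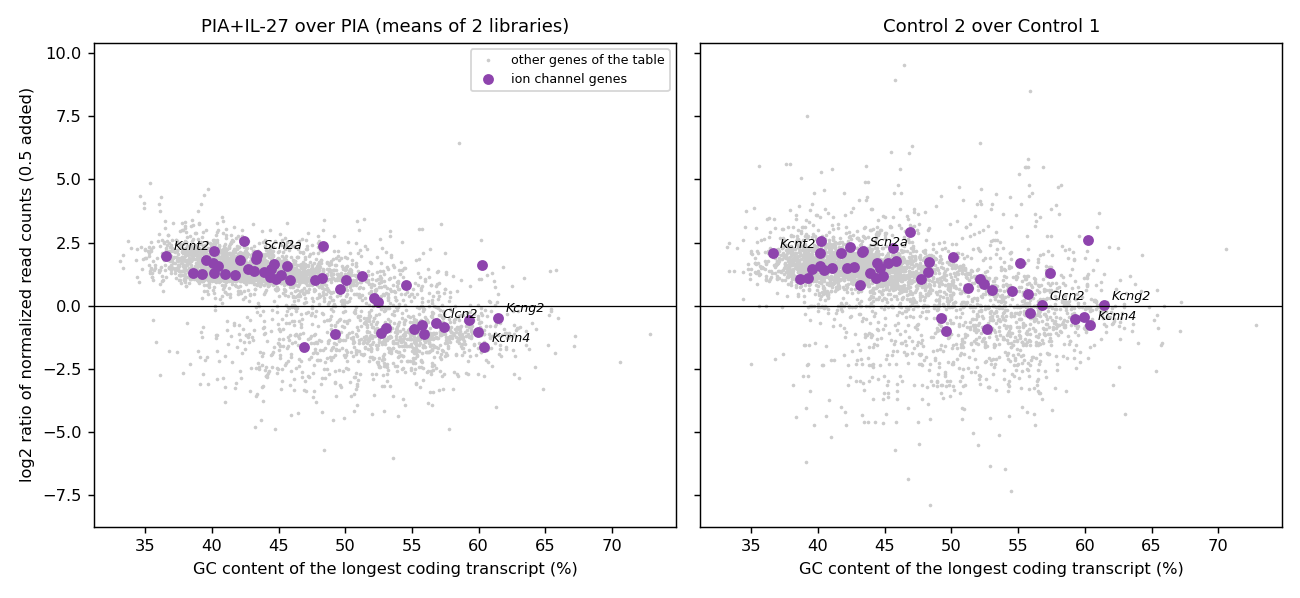
Left, the difference between PIA+IL-27 and PIA in mean log2 normalized read count (0.5 added) against the GC content of the longest coding transcript; right, the ratio of Control 2 over Control 1 on the same axes. Purple points are the 47 channel genes and grey points the other genes of the table. In both panels genes of low GC content such as Kcnt2 lie above 0, and Clcn2 and Kcnn4, of high GC content, lie near or below 0.

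For PIA against Control, the comparison that addresses the immune activation itself, few channel genes separated the groups. Both PIA libraries were above both Control libraries in 4 genes, Kcng3, Kcnh4, Kcne4 and Clcn2 (8.51%, against 17.2% of all listed genes), and below in 4 others, Kcng2, Scn4b, Cacng2 and Trpc5 (against 16.5%). In edgeR, 13 of the 47 log2 fold changes were above 0 and their median was -0.63; over all genes tested the median was -0.68, with 27.8% above 0. With TMM factors, which set the median of all listed genes near 0, the channel median was 0.12 in this comparison. By library pairs, the median log2 ratio of the channel genes was 0.18 and 0.36 for PIA 1 and PIA 2 over Control 1, and -1.17 and -1.08 over Control 2. Without Control 2 the median of the 47 fitted fold changes was 0.31.

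No channel gene passed at an adjusted p of 0.05 in PIA against Control in edgeR, in which 7 of 3216 genes passed (0.218%), and 0 passed in DESeq2 or limma. At an unadjusted p under 0.05, 1 channel gene was higher (3.05% of all genes) and 0 were lower (3.23%). The smallest p-values belonged to Trpa1 among genes above 0, with a log2 fold change of 2.77 ± 1.14 (SE), followed by Kcnt1 (1.53 ± 0.84), Cacna1i (1.25 ± 0.82), Kcnh4 (1.40 ± 0.94) and Clcn2 (1.15 ± 0.86). Of these, Kcnh4 and Clcn2 separated the groups, while PIA 1 was below the higher Control library in the other 3. Below 0, they belonged to Trpc5 (-1.58 ± 0.88), Scn9a (-1.71 ± 0.99), Kcna1 (-1.32 ± 0.89), Trpm3 (-1.18 ± 0.86) and Scn4b (-1.54 ± 1.15). All 10 had an adjusted p of 0.617 in edgeR (n = 2 per group). All 5 values above 0 were lower without PIA 2, where Trpa1 was at -1.12, Cacna1i at -0.09, Clcn2 at 0.07, Kcnt1 at 0.10 and Kcnh4 at 0.42. Of those below 0, without Control 2 Trpm3 was at 0.39, Kcna1 at -0.05, Scn9a at -0.13 and Trpc5 at -0.45. Scn4b, a gene of few reads, stayed between -1.81 and -1.20 with any 1 library left out. Over all alternatives it ran from -2.245 to -0.47. In the authors' deposited table, 7 channel genes are listed as higher (against 18.0% of all genes), namely Kcnh4, Kcnt1, Cacna1i, Cacng6, Clcn1, Clcn2 and Trpa1, and 15 as lower (against 34.4%), among them Scn2a at a log2 fold change of -1.15.

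For PIA+IL-27 against PIA, the comparison that addresses the added cytokine, most channel genes separated the groups. Both PIA+IL-27 libraries were above both PIA libraries in 28 of 47 genes (59.6%), against 57.1% of all listed genes. The 28 are the 27 genes of the common division and Scn4b. Both were below in 4 genes (8.51%, against 16.5%), Kcne4, Kcnn4, Cacna2d4 and Cacng1. The median log2 fold change was 1.09 for the channel genes, with 34 of 47 above 0, and 1.17 for all genes tested, with 74.8% above 0. In each of the 4 pairs of a PIA+IL-27 and a PIA library, 30 to 39 of the 47 genes were higher in PIA+IL-27, and the median log2 ratio was between 0.84 and 1.37. With TMM factors the channel median was -0.10, and with median-of-ratios factors it was -0.05. The channel genes thus had nearly the median of the table, which was itself selected on these comparisons.

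No channel gene passed in PIA+IL-27 against PIA in edgeR, in which 14 genes passed (0.435%), and 0 passed in limma. At an unadjusted p under 0.05, 6 channel genes were higher, the 5 named next and Scn3a (12.8%, against 14.4% of all genes), and 0 were lower (against 4.35%). Trpc5 had a log2 fold change of 2.36 ± 0.91 (SE), Scn9a 2.52 ± 1.02, Scn2a 2.04 ± 0.85, Kcnt2 2.16 ± 0.96 and Scn1a 1.88 ± 0.91. Their adjusted p was 0.257 to 0.258 in edgeR (n = 2 per group). Trpc5 passed in DESeq2 (adjusted p = 0.0263), with GC and length trends removed (0.0193), and with the 4 libraries of the comparison alone (0.0493), where Scn2a, Scn3a, Scn9a, Trpm7 and Cacnb4 passed too. With those 4 libraries alone, 6 of 45 channel genes passed (13.3%), against 14.9% of all genes tested; in DESeq2 7.88% of all genes passed, and with the trends removed 1.41%. Below 0, the smallest p-values were those of Kcnn4 (-1.75 ± 1.38), Kcnt1 (-1.01 ± 0.83), Kcnh4 (-1.13 ± 0.94), Clcn2 (-0.91 ± 0.86) and Kcne4 (-1.17 ± 1.10), with adjusted p of 0.338 to 0.373. Without PIA 2 the values of Kcnt1, Clcn2 and Kcnh4 were 0.43, 0.17 and -0.15. The authors' deposited table lists 31 channel genes as higher (against 61.4% of all genes), with the largest log2 fold changes in Scn9a (2.61), Trpc5 (2.41), Kcnt2 (2.22), Ano3 (2.15) and Scn2a (2.10). The authors' deposited table lists 5 as lower (against 18.2%): Kcnh4, Kcne4, Kcnn4, Cacna2d4 and Cacng1.

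**Figure D5:**
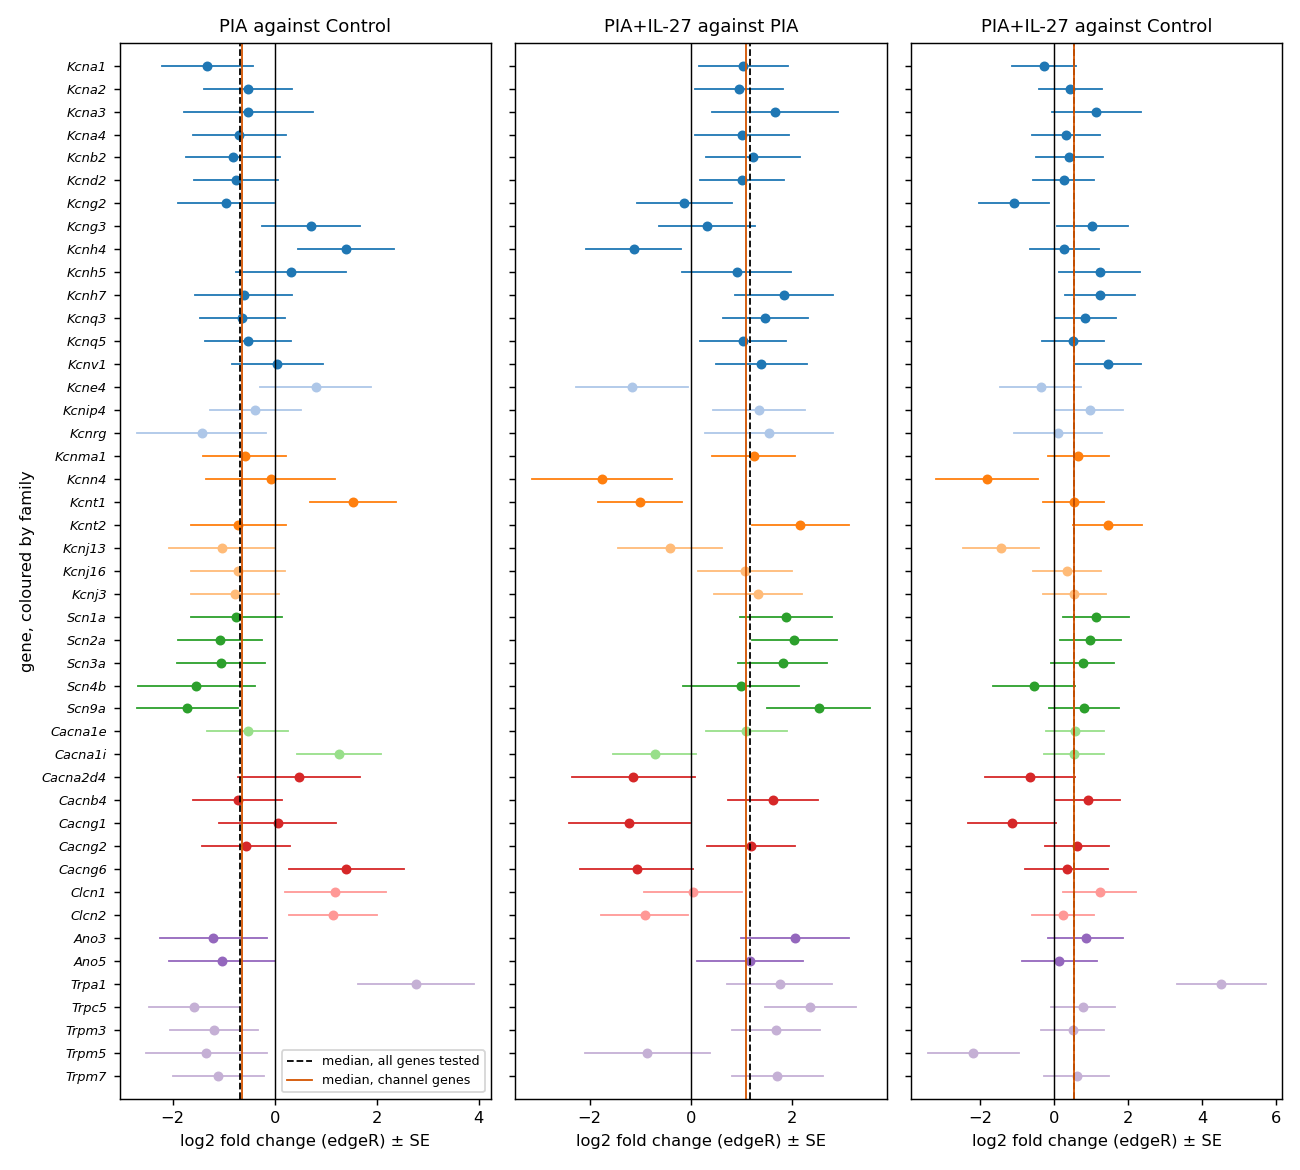
Points give the edgeR log2 fold change of 45 channel genes and lines its standard error (n = 2 libraries per group) in the 3 comparisons; the solid orange and dashed black lines are the medians of all 47 channel genes and of all genes tested. The 2 medians lie within 0.08 of each other in each panel, and Trpa1 at 4.53 in the right panel is the 1 gene that passed.

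PIA+IL-27 against Control shares the Control libraries with the first comparison and the PIA+IL-27 libraries with the second. Both PIA+IL-27 libraries were above both Control libraries in 8 genes (17.0%, against 23.0% of all listed genes), Kcna3, Kcng3, Kcnh7, Scn2a, Cacng2, Clcn1, Clcn2 and Trpc5. Several of these margins were narrow, as in Scn2a, at 1885 in Control 2 and 1908 in PIA+IL-27 2. Both were below in 4 genes (8.51%, against 7.5%), Kcng2, Kcnn4, Cacng1 and Trpm5. The median log2 fold change was 0.53, against 0.55 for all genes tested, and 37 of 47 were above 0 (78.7%, against 73.3%). With TMM factors the channel median was -0.11. By library pairs, the median log2 ratio of the channel genes was 1.34 and 1.20 for PIA+IL-27 1 and PIA+IL-27 2 over Control 1, and 0.27 and -0.20 over Control 2. The fitted median was 0.05 without Control 1, 1.12 without Control 2 and 0.32 without PIA+IL-27 1.

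In PIA+IL-27 against Control, Trpa1 had a log2 fold change of 4.53 ± 1.20 (SE, 2 libraries per group). Its adjusted p was 0.0490 in edgeR, and it was 1 of 10 genes that passed (0.311%). The groups overlapped, as PIA+IL-27 2 had 4.85 normalized read counts and Control 2 had 6.67. The call was lost under 12 of the 15 alternatives that tested Trpa1, and without PIA+IL-27 1 the log2 fold change was 0.16. Trpa1 passed the filter on low counts through PIA 2 and PIA+IL-27 1, with 54 and 192 reads. With only the libraries of this comparison it was not tested. At an unadjusted p under 0.05 it was the 1 channel gene that was higher (1.65% of all genes), and 0 were lower (1.21%). The next smallest p-values were those of Kcnv1 (1.44 ± 0.90), Kcnt2 (1.45 ± 0.93), Kcnh7 (1.23 ± 0.95) and Scn1a (1.13 ± 0.89). Below 0 they included those of Trpm5 (-2.20 ± 1.23), Kcnj13 (-1.44 ± 1.03), Kcnn4 (-1.83 ± 1.38) and Kcng2 (-1.09 ± 0.95). All of these had an adjusted p of 0.835. Without PIA+IL-27 1, Kcnv1 was at 0.36, Kcnt2 at 0.42, Scn1a at 0.47 and Kcng2 at -0.34. Without Control 1, Scn1a was at 0.42. Kcnj13 without Control 2, the library of high choroid plexus markers, was at 0.69. In the authors' deposited table, 9 channel genes are listed as higher (against 13.3% of all genes), Kcna3, Kcng3, Kcnh5, Kcnh7, Kcnv1, Kcnt2, Scn1a, Clcn1 and Trpa1, and 6 as lower (against 8.57%), among them Kcng2, Kcnn4, Kcnj13, Cacng1 and Trpm5.

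Genes that assemble with these channels or work beside them were taken from a list of 64, of which 16 are in the table. Of the 14 that were tested, 0 passed in edgeR in any comparison, and 0 had an unadjusted p under 0.05. In PIA+IL-27 against PIA, Itpr3 passed in DESeq2 (adjusted p = 0.0224), in which 7.88% of all genes passed, and Unc80 with the 4 libraries of that comparison alone (0.0493), in which 14.9% did. The common division was found in 13 of the 16, against 52.4% of all listed genes. It included the sodium leak channel Nalcn and its partner Unc80, the anchoring proteins Ank2 and Ank3, the sodium channel regulators Fgf12 and Fgf14, the Kv4 subunit Dpp10, the Kv1-associated secreted protein Lgi1, the adhesion protein Nrcam, the release-site proteins Rims1 and Rims2, and the ryanodine receptors Ryr2 and Ryr3. Ank3, the ankyrin that gathers sodium channels and Kv7 channels at the axon initial segment, had 2453 and 4497 normalized reads in the Control libraries, 2376 and 1279 in those of PIA, and 4790.2 and 4656 in those of PIA+IL-27. Unc80 had 164 and 433 normalized reads in the Control libraries, 117 and 119 in those of PIA, and 419 and 375 in those of PIA+IL-27. Both PIA libraries of Ank3 and Unc80 were below both Control libraries, in Ank3 by a narrow margin between PIA 1 and Control 1. Itpr3, a calcium release channel of the endoplasmic reticulum, had 87.2 and 82.8 normalized reads in the Control libraries, 120.1 and 203 in those of PIA, and 94.9 and 46.6 in those of PIA+IL-27, with PIA 2 the highest, and the endolysosomal channel Mcoln2 had 8.82 and 1.90 normalized reads in the Control libraries, 26.9 and 8.73 in those of PIA, and 4.17 and 0 in those of PIA+IL-27. In PIA+IL-27 against PIA, 14 of the 16 were higher in both libraries (against 57.1% of all listed genes) and 2, Itpr3 and Mcoln2, were lower (against 16.5%). The 14 are the 13 of the common division and Pkd2l1, which was near the limit of counting. Pkd2l1 had 3.92 and 4.76 normalized reads in the Control libraries, 0.961 and 1.09 in those of PIA, and 2.09 and 2.91 in those of PIA+IL-27. Pkd2l1 and Mcoln2 were not among the partners tested.

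The spread between replicates of 1 group sets the scale for all of these differences. The 2 Control libraries were over 2-fold apart in 33 of the 47 channel genes (70.2%), the PIA libraries in 19 (40.4%) and the PIA+IL-27 libraries in 17 (36.2%). In the listed genes as a whole these shares were 71.8, 34.6 and 33.9%. Control 2 was above Control 1 in 40 of the 47 genes (85.1%, against 75.1% of all listed genes). In Scn2a the Control libraries were at 422 and 1885, so that the replicates of Control spanned the gap between the highest PIA library (572) and the lower PIA+IL-27 library (1908) almost in full.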

How the data were processed

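Total RNA of 6 mouse hippocampal libraries was sequenced at BGI Genomics, per the labels. The authors' deposited table gives, per the file headers, an expected count, a normalized read count (a signal, equal to the rounded-up read count divided by 1 factor per library of 0.917 to 1.05), TPM and FPKM for each gene and library. For each comparison the authors deposited the log2 fold change with its p-value and Q value. Their aligner, counter, test, strand setting and genome build were not given in these sources. FPKM was not tested.

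Expected counts were rounded and tested with the quasi-likelihood test of edgeR 4.0.16 (R 4.3.3), with the authors' factors and all 6 libraries in 1 fit. The filter filterByExpr by group left 3216 of 3733 genes, and p-values were adjusted by Benjamini-Hochberg over them. The spread was pooled over genes (biological coefficient of variation 0.597, infinite prior degrees of freedom). The test was also run on simulated counts, after the fits to these data. Those counts were drawn independently, without the divisions between libraries seen here, and no result here rests on them. Because the table is a selection, adjusted p-values do not control the error over the genome. Members, lists and named genes were chosen with earlier results of these data known. Named genes are, per comparison, the 5 above and 5 below 0 with the smallest p, any gene past the threshold, the 2 most abundant per family and a set of well-studied channels; other genes are given by their values alone. Alternatives were other factors, filters, libraries and terms, DESeq2 1.42.0, and limma 3.58.1 on log2 TPM. GC content and length came from GENCODE vM21. The labels give no pairing by replicate number. Deviations of same-numbered libraries from their group means had correlations of 0.16, 0.06 and -0.25 between groups. With 2 libraries per group these cannot show whether libraries were paired. Of 2 channel genes, the values are not reported here, though counts over all 47 include them.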

Additional observations from a re-analysis of the deposited data

How the results depend on the processing

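Of 485 values of single channel genes under an alternative, 452 kept their direction and their side of the threshold, 12 lost a call, 10 gained one and 11 changed sign. Of the 10 gained calls, 5 came from the crossed replicate numbers described below, an alternative added after the data were seen. Since 1 of the 30 gene results was called in the main fit, keeping a side mostly meant staying uncalled. The 12 lost calls are those of Trpa1 in PIA+IL-27 against Control. In PIA against Control, the log2 fold change of Trpa1 was -1.30 with a term for PIA 2 and PIA+IL-27 1. With 1 library left out, it ran from -1.12 (without PIA 2) to 3.86, that of Cacna1i from -0.086 (without PIA 2) to 1.94, and that of Trpm3 from -1.92 to 0.39 (without Control 2). In PIA+IL-27 against PIA, Kcnt1 ran from -1.73 to 0.43 and Clcn2 from -1.52 to 0.17, both highest without PIA 2. With GC and length trends removed they were at 0.42 and 0.82, and Kcnn4 and Kcnh4 were at 0.44 and 0.76. Kcnj13 in PIA+IL-27 against Control ran from -5.07 to 0.69 (without Control 2).

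Genes called in PIA against Control, PIA+IL-27 against PIA and PIA+IL-27 against Control numbered 7, 14 and 10. With TMM factors and with median-of-ratios factors they numbered 0, 0 and 0. They were 3, 4 and 3 with the replicate block, 2, 294 and 2 in DESeq2, 30, 44 and 18 with GC and length trends removed, and 9, 2 and 3 with that term for 2 libraries. In limma they were 6, 10 and 2 with 1 added to TPM, and 12, 14 and 5 with 0.1 added. With only the libraries of the comparison they were 9, 449 and 1. With 1 library left out, each count ran from 0 to 7.

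Channel genes called in PIA+IL-27 against PIA numbered 6 with only the libraries of the comparison, and 1 each (Trpc5) in DESeq2 and with GC and length trends removed. Channel partners called there numbered 1 with only those libraries and 1 in DESeq2. In PIA+IL-27 against Control the 1 channel gene called, Trpa1, became 0 with TMM or median-of-ratios factors, the replicate block and the term. The count was also 0 in DESeq2 and either limma fit, and 0 to 1 with 1 library left out. With only the libraries of that comparison, 44 channel genes were tested and Trpa1 was not among them. The channel median in PIA+IL-27 against PIA was -0.10 with TMM factors, -0.052 with median-of-ratios factors, -0.026 in DESeq2, 0.77 with GC and length trends removed and 0.78 in limma with 1 added. In PIA against Control it ran from -1.17 to 0.31 with 1 library left out. Factors computed over the listed genes put the median of these genes near 0 by construction; the cause of the other changes was not tested.

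The labels give no pairing by replicate number, and the replicate block called 0 channel genes in all 3 comparisons. With the numbers of PIA and PIA+IL-27 crossed, an alternative added after the data were seen, 1195 of 3006 genes tested were called. Among them were 13 of the 45 channel genes tested and 1 partner. The numbers were crossed because same-numbered libraries of these groups had a correlation of -0.25. The crossing was thus chosen on these same data, and its calls are not independent support. With 2 libraries per group, a lone library left by omission was assumed to vary like the others.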
